A study of Mus musculus with 6 samples.

Results

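The genes described here are 35 mouse genes of the interferon-stimulated antiviral response, taken by name from the 55291 genes listed for 6 mouse liver tumours. All 35 were listed, and all 35 were among the 16506 genes with at least 1 TPM (a level per length of transcript that sums to 1000000 in each library) in at least 3 libraries. The MKO_PD1 group holds tumours of 3 mice in which Trem2, a lipid-sensing receptor of macrophages, was knocked out in myeloid cells, and the Cre_PD1 group holds tumours of 3 LysM-Cre mice. Every tumour was of RIL-175/PD-1R, in which RIL-175 names a line of mouse hepatocellular carcinoma cells and PD-1R is not explained, and every mouse had been given anti-PD-1, an antibody that blocks an inhibitory receptor of T cells. LysM-Cre acts in macrophages, monocytes and neutrophils of the host, and the labels do not name the Cre behind the knockout. The ages and sexes of the mice and any batch are not given in the sources used here, and untreated tumours were not analysed here. Each library is bulk polyadenylated RNA of 1 tumour, so fewer cells of a type and less RNA per cell cannot be told apart.

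Interferons are cytokines that cells release when they sense foreign or misplaced nucleic acid, or that activated T cells and NK cells release. Type I interferons bind a receptor whose kinases phosphorylate STAT2, which acts with IRF9 in a complex that binds the interferon-stimulated response element (ISRE) of target genes. Interferon gamma acts through a separate receptor and a separate element, the gamma-activated sequence (GAS). The target genes encode sensors of viral RNA and DNA, enzymes that degrade or edit RNA, proteins that block viral entry, translation or budding, and the factors that carry the signal onward. In tumours these genes are expressed by cancer cells and by infiltrating immune and stromal cells.

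The ISRE is visible in the promoters of many of the members, and the stretches below are shown because they hold it. RefSeq promoter windows on GRCm38.p6 (the assembly also called mm10), from 250 bases before to 50 bases after a start site, were given for 27 of the 35 members. The ISRE core was searched as GAAA, any 2 bases, GAAA, on both strands, so that it can also read TTTC, any 2 bases, TTTC. A window of 15 of these 27 members held it (55.6%), against 1079 of all 27025 genes with a window (3.99%). The GAS core TTCNNNGAA, which is its own reverse complement, was in a window of 8 of the 27 members (29.6%), against 9.55% of all genes. The 6 stretches are those of the members with an ISRE core and the highest mean level, read 5′ to 3′ along the gene, with the cores in capitals.
Ifitm3 (chr7:141010715-141010772, minus strand): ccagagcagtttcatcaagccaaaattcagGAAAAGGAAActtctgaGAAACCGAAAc
Bst2 (chr8:71537557-71537632, minus strand): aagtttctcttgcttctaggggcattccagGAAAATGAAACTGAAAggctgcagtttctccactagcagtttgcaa
Isg15 (chr4:156200845-156200926, minus strand): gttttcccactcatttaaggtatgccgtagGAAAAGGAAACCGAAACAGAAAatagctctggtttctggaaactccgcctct
Ifit3 (chr19:34583343-34583446, plus strand): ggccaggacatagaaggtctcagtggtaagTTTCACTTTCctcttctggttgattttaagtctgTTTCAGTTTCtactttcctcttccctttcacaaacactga
Stat2 (chr10:128270248-128270315, plus strand): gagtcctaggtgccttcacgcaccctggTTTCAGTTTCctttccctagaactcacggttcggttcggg
Trim30a (chr7:104465190-104465259, minus strand): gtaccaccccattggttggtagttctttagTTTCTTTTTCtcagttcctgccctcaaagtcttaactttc

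Isg15 carried 3 overlapping cores that began 78, 72 and 66 bases before its start site. Ifitm3 had its cores just after the start site, from bases 3 and 20 of the transcript, and Stat2 had its core farthest upstream of these 6, at 222 bases before the start. A pair of close relatives, chosen after the windows were seen, shows how alike some members are.
Oas1a (chr5:120907500-120907575, minus strand): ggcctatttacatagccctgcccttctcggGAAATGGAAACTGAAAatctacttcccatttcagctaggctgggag
Oas1g (chr5:120887586-120887661, minus strand): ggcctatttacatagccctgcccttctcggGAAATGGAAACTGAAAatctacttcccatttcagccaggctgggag

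Over these 76 bases Oas1a and Oas1g differed at 1 base, and the corresponding stretches of Ifit3 and Ifit3b were the same over all 104 bases compared. Ifit3 with Ifit3b and Oas1a with Oas1g are close paralogs, and although their transcripts were not compared here, reads they share may have been split or left out, so their levels may be less certain. In TPM, MKO_PD1 replicate 2 was the highest library for 15 of the 15 members with an ISRE core, against 23.3% of all tested genes. It was highest for 10 of the 12 with a window but no core, and for 7 of the 8 without a window. With median-of-ratios scaling, described below, it was highest for 17 of all 35 members, against 15.7% of all tested genes. Of the members with a core, Ifitm3, Bst2, Isg15, Stat2, Ddx58, Ifih1, Oas1a and Ifit3b were then highest in MKO_PD1 replicate 1. The others with a core, Ifit1, Ifit3, Oas1g, Oas3, Trim30a, Rsad2 and Eif2ak2, stayed highest in MKO_PD1 replicate 2. A match to these letters describes the window and does not show that a factor binds there.

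The deletion cannot be read from the Trem2 level. Trem2 was at 7.68, 18 and 6.81 TPM in MKO_PD1 replicates 1, 2 and 3 and at 10.5, 16.5 and 14.9 TPM in Cre_PD1 replicates 1, 2 and 3. The level in the library labelled MKO_PD1 replicate 2 was above all 3 Cre_PD1 libraries. The labels do not say which exons were deleted, and the values count reads over the whole gene, so they do not check it. MKO_PD1 and Cre_PD1 stand below for the libraries so labelled. The libraries held from 26747481 to 34265123 recovered reads. Of these 35 genes, 34 could be converted to whole reads, the lowest being 81 reads of Cmpk2. The labels name no molecular identifiers, so reads may not be independent molecules.

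On the TPM scale the members' mean level differed more among the MKO_PD1 tumours than between the group means, and with median-of-ratios scaling, which takes the typical gene as unchanged, it was higher in every MKO_PD1 tumour. The mean log2(TPM + 1) of the members was 4.34, 5.52 and 4.62 in MKO_PD1 replicates 1, 2 and 3 and 4.69, 4.85 and 5.06 in Cre_PD1 replicates 1, 2 and 3. MKO_PD1 replicate 2 was thus above every Cre_PD1 tumour on the TPM scale, and MKO_PD1 replicates 1 and 3 were below every Cre_PD1 tumour. The group means were 4.82 ± 0.616 in MKO_PD1 and 4.86 ± 0.186 in Cre_PD1 (SD, n = 3 each). With median-of-ratios scaling the same mean was 5.08, 5.29 and 4.81 in MKO_PD1 replicates 1, 2 and 3 and 4.44, 4.70 and 4.76 in Cre_PD1 replicates 1, 2 and 3. On that scale the groups did not overlap, by a margin of 4.81 against 4.76 at the nearest, and averaged 5.06 ± 0.241 in MKO_PD1 and 4.63 ± 0.171 in Cre_PD1 (SD, n = 3 each). For 21 of the 35 members the MKO_PD1 range enclosed the whole Cre_PD1 range, which held for 17.5% of all tested genes, and with median-of-ratios scaling for 4 members, against 14.7% of all tested genes. MKO_PD1 replicate 2 was the highest of the 6 libraries for 32 of the 35 members, against 23.3% of all tested genes. With median-of-ratios scaling that count was 17 of 35, against 15.7% of all tested genes, and MKO_PD1 replicate 1 was highest for another 15, against 34.7%. In TPM, MKO_PD1 replicate 1 was the lowest library for 20 members, against 70.7% of all tested genes. The members' log2 level had a median SD of 0.586 in MKO_PD1 and 0.302 in Cre_PD1, where the medians over all tested genes were 0.538 and 0.215.

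**Figure D1:**
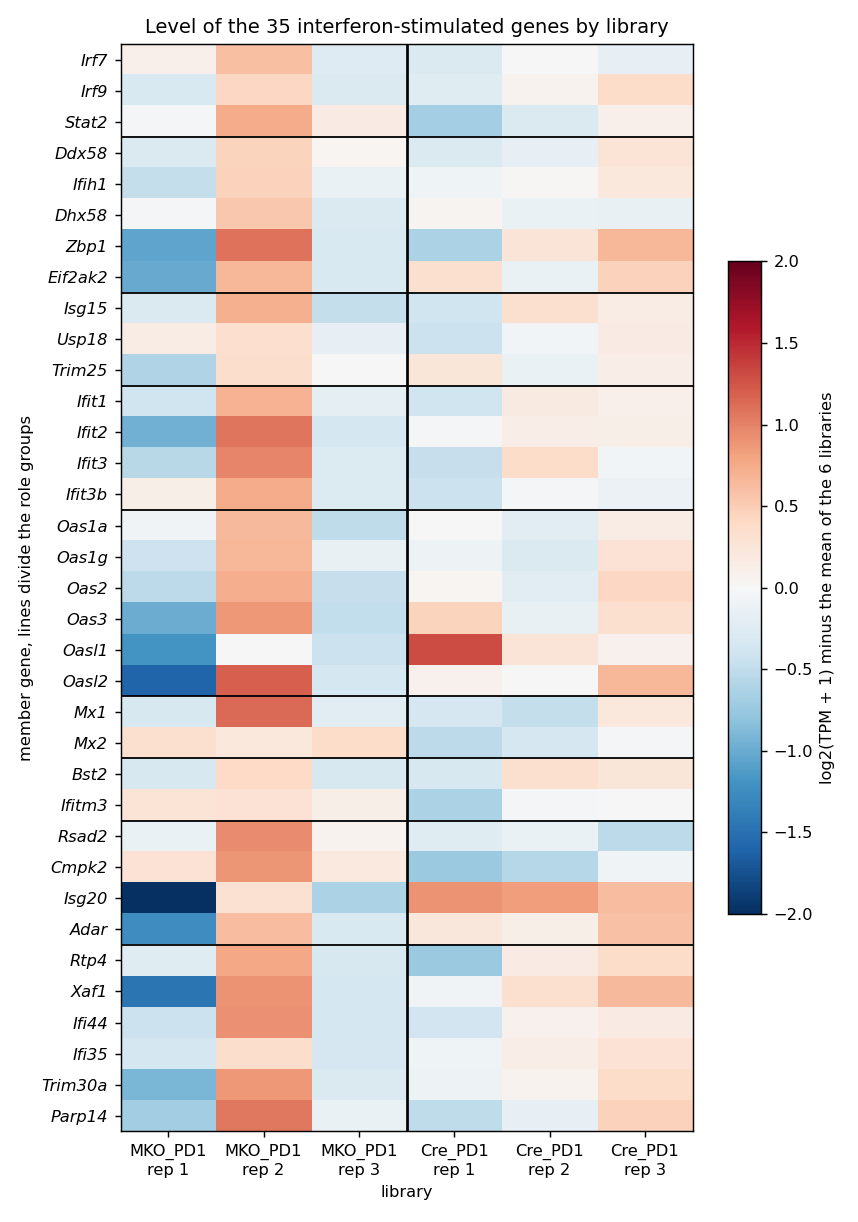
Levels of the 35 genes (rows, in groups of shared role) in the 6 libraries (columns), as log2(TPM + 1) minus the mean of that gene over the libraries. The column of MKO_PD1 replicate 2 holds the highest value of the row for 32 of 35 genes, and Oasl1, Isg20 and Mx2 are the exceptions.

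No member passed the test between the groups. In the limma fit over all 16506 tested genes, 0 of 35 members had an adjusted p under 0.05, where 2 of all tested genes did (0.0121%). At an unadjusted p under 0.05 there was 1 member higher in MKO_PD1, Cmpk2, against 8.47% of all tested genes, and there were 2 lower, Isg20 and Oasl1, against 19.5%. Limma voom on recovered reads, with library sizes set by median-of-ratios factors, also called 0 members. It had 14 of 34 at an unadjusted p under 0.05, against 29.7% of all genes in that fit. Limma on TPM with median-of-ratios scaling called 0 members too. It had 16 of 35 at an unadjusted p under 0.05, against 4919 of 16506 tested genes. In the limma fit on TPM without that scaling, the log2 difference, MKO_PD1 minus Cre_PD1, had a median of 0.051 over the members, and 18 of them were above 0. The median over all tested genes was -0.42 and 27.1% of them were above 0. With median-of-ratios scaling the members' median was 0.479, that of all genes was 0.0056 and 30 members were above 0, so the members lay above all genes by 0.468 in the first scaling and 0.474 in the second. The interval of the difference included 0 for 32 of 35 members, and the intervals were from 1.30 to 2.91 log2 units wide, so sizeable differences in either direction were not detectable for most of them.

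**Figure D2:**
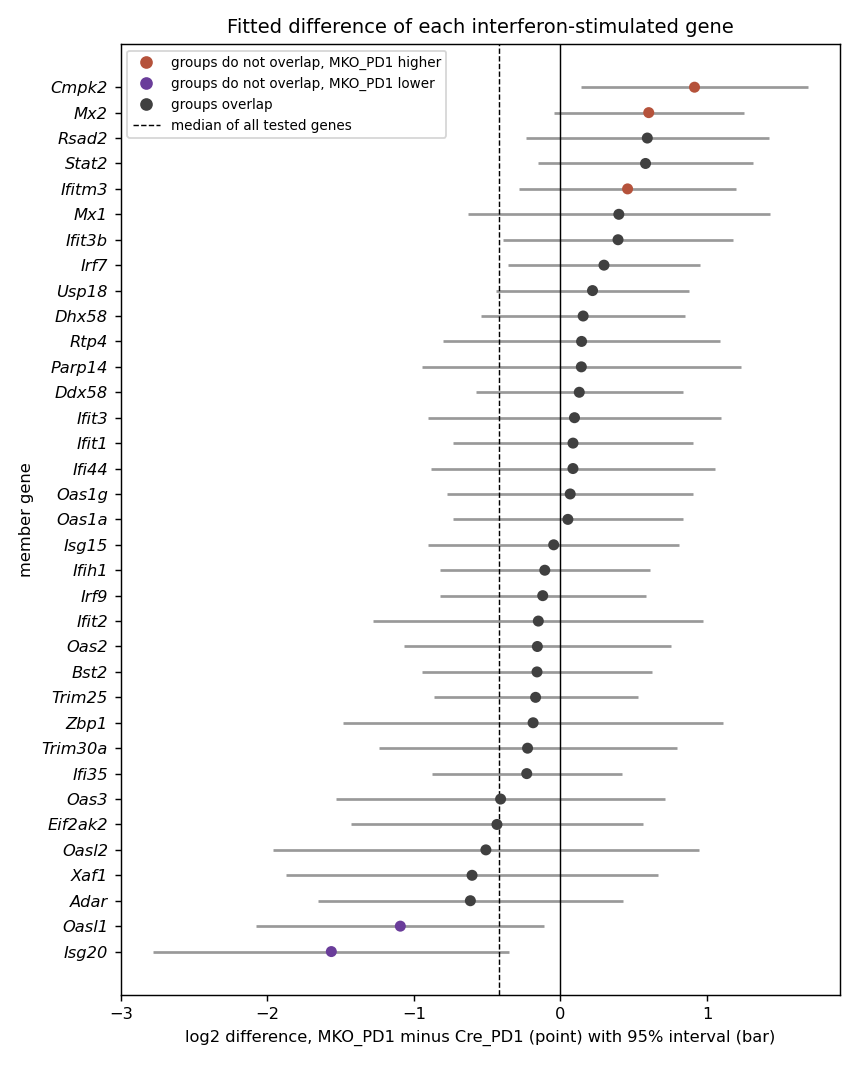
Fitted log2 difference of each of the 35 genes (points) with its 95% interval (bars), where positive values are higher in MKO_PD1. Isg20 at -1.56 and Oasl1 at -1.09 lie lowest, Cmpk2 at 0.92 lies highest, and the dashed line marks the median of all tested genes at -0.42.

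For 5 members the groups did not overlap, 3 with MKO_PD1 higher, against 10.1% of all tested genes, and 2 with MKO_PD1 lower, against 28.9% of all tested genes. In TPM both shares of members (8.57% and 5.71%) were below those of all genes. With median-of-ratios scaling 14 members (40%) did not overlap with MKO_PD1 higher, against 19.8% of all tested genes, a share above that of all genes. They were Cmpk2, Mx2, Ifitm3, Rsad2, Stat2, Irf7, Ddx58, Ifih1, Dhx58, Usp18, Trim25, Ifit1, Ifit3b and Oas1g. On that scale Isg20 and Oasl1 (5.71%) again did not overlap with MKO_PD1 lower, against 19.6%. All 5 that did not overlap in TPM kept the sign of their difference without any single library and under each scaling run. Their adjusted p in the limma fit on TPM lay between 0.168 and 0.324.

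Cmpk2 encodes a mitochondrial nucleotide kinase and lies beside Rsad2 on chromosome 12, from 26469204 to 26479837 on the plus strand of GRCm38. It was at 4.96, 8.0 and 4.61 TPM in MKO_PD1 replicates 1, 2 and 3 and at 1.91, 2.30 and 3.67 TPM in Cre_PD1 replicates 1, 2 and 3. All 3 MKO_PD1 tumours were above all 3 Cre_PD1 tumours, at 5.86 ± 1.87 TPM against 2.63 ± 0.924 TPM (SD, n = 3 each), with a log2 difference of 0.92 (SE 0.33, limma adjusted p = 0.168). Its neighbour Rsad2 encodes viperin, an enzyme that makes a nucleotide which ends viral RNA chains. Rsad2 was at 6.09, 14.0 and 7.15 TPM in MKO_PD1 and at 5.58, 6.11 and 4.40 TPM in Cre_PD1. Only MKO_PD1 replicate 1 lay within the Cre_PD1 range, and the log2 difference was 0.59 (SE 0.36, limma adjusted p = 0.268). With median-of-ratios scaling the groups of Rsad2 did not overlap, with MKO_PD1 higher.

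Mx2 and Mx1 encode dynamin-like GTPases that trap viral components, and lie next to each other within 113.9 kb of chromosome 16. Mx2, from 97535308 to 97560900 on the plus strand, was at 4.92, 4.49 and 5.10 TPM in MKO_PD1 and at 2.29, 2.74 and 3.60 TPM in Cre_PD1. It was the member whose highest library was MKO_PD1 replicate 3, and its 3 MKO_PD1 values lay close together (log2 difference 0.60, SE 0.28, limma adjusted p = 0.191). Mx1, which carries an inactivating deletion in many laboratory mouse strains, was at 3.57, 11.5 and 3.90 TPM in MKO_PD1 and at 3.51, 3.08 and 5.61 TPM in Cre_PD1. Here MKO_PD1 replicate 2 stood apart and the other values were mixed.

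Ifitm3 encodes a membrane protein that keeps enveloped viruses from fusing in endosomes, and was the most abundant member (chromosome 7, 141009586 to 141010770, minus strand). Its level was 1739, 1748 and 1561 TPM in MKO_PD1 and 922, 1392 and 1424 TPM in Cre_PD1. The groups did not overlap, although Cre_PD1 replicates 2 and 3 came close to MKO_PD1 replicate 3 (log2 difference 0.46, SE 0.32, limma adjusted p = 0.324). Bst2 encodes tetherin, which holds budding virus particles at the cell surface, and was the second most abundant. It was at 653, 1083 and 658 TPM in MKO_PD1 and at 655, 1021 and 970 TPM in Cre_PD1, with MKO_PD1 replicates 1 and 3 at the level of Cre_PD1 replicate 1.

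Isg20 encodes an exonuclease that degrades single-stranded RNA (chromosome 7, 78913424 to 78920396, plus strand). It was at 23.3, 121 and 62.6 TPM in MKO_PD1 and at 182, 175 and 150.3 TPM in Cre_PD1. All 3 MKO_PD1 tumours were below all 3 Cre_PD1 tumours, at 68.8 ± 48.9 TPM against 169 ± 16.7 TPM (SD, n = 3 each), with the widest gap in MKO_PD1 replicate 1 (log2 difference -1.56, SE 0.53, limma adjusted p = 0.168). Oasl1 encodes an OAS-like protein that in mice restrains the translation of Irf7 (chromosome 5, 114923240 to 114937915, plus strand). It was at 20.1, 47.3 and 34.9 TPM in MKO_PD1 and at 119, 56.7 and 50.2 TPM in Cre_PD1. The groups were apart by little, 47.3 TPM against 50.2 TPM at the nearest, and Cre_PD1 replicate 1 was far above the rest (log2 difference -1.09, SE 0.43, limma adjusted p = 0.168).

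**Figure D3:**
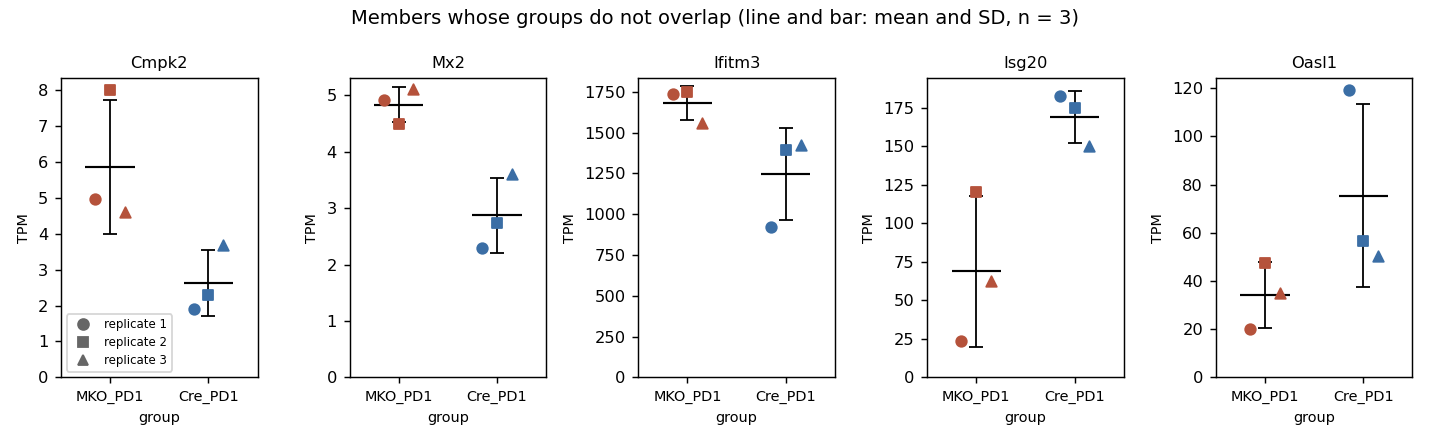
TPM of the 5 members whose groups do not overlap, with 1 point per tumour (3 per group), a line at the group mean and a bar of 1 SD. Cmpk2, Mx2 and Ifitm3 lie higher in all 3 MKO_PD1 tumours, and Isg20 and Oasl1 lie higher in all 3 Cre_PD1 tumours.

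The factors that carry the signal differed among themselves. Stat2, of the ISRE-binding complex, was at 40.4, 69.7 and 46.4 TPM in MKO_PD1 and at 25.3, 33.5 and 44.7 TPM in Cre_PD1. Only MKO_PD1 replicate 1 fell inside the Cre_PD1 range (log2 difference 0.58, SE 0.32, limma adjusted p = 0.231). Irf9, its DNA-binding partner, was at 23.3, 39.2 and 23.6 TPM in MKO_PD1 and at 24.5, 30.5 and 37.6 TPM in Cre_PD1, so that both ends of the order were MKO_PD1 tumours. Irf7, the factor that amplifies type I interferon production, was at 65.1, 93.1 and 50.7 TPM in MKO_PD1 and at 49.6, 60.9 and 54.3 TPM in Cre_PD1. Its groups overlapped through MKO_PD1 replicate 3. These overlaps are those in TPM. With median-of-ratios scaling Stat2 was at 70.25, 59.32 and 53.7 in MKO_PD1 and at 21.04, 29.97 and 35.94 in Cre_PD1. Irf7 did not overlap on that scale either, with MKO_PD1 higher, while Irf9 still overlapped and was lowest in Cre_PD1 replicate 1.

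In TPM all 5 sensor genes had their highest level in MKO_PD1 replicate 2. Zbp1, a sensor of Z-form nucleic acid that can start cell death, was at 43.9, 197 and 74.6 TPM in MKO_PD1 and at 59.0, 111 and 147 TPM in Cre_PD1. Ifih1 encodes MDA5, a sensor of long double-stranded RNA, and was at 12, 24.1 and 15.6 TPM in MKO_PD1 and at 16.2, 17.6 and 20.1 TPM in Cre_PD1. For both genes the 3 Cre_PD1 values lay between the lowest and the highest MKO_PD1 value in TPM. With median-of-ratios scaling this held for neither gene. Ddx58 encodes RIG-I, a sensor of RNA with a 5′ triphosphate, and was at 13.2, 22.7 and 16.7 TPM in MKO_PD1 and at 13.1, 14.5 and 19.9 TPM in Cre_PD1. Dhx58 encodes LGP2, which modulates RIG-I and MDA5, and was at 13.8, 21.1 and 11.5 TPM in MKO_PD1 and at 14.8, 12.8 and 12.6 TPM in Cre_PD1. Eif2ak2 encodes the kinase PKR, which halts translation on double-stranded RNA. It was at 11, 37.5 and 18.5 TPM in MKO_PD1 and at 29.1, 21.2 and 32.3 TPM in Cre_PD1, and MKO_PD1 replicates 1 and 3 were below all Cre_PD1 tumours. With median-of-ratios scaling MKO_PD1 replicates 1 and 3, at 19.15 and 21.41, were inside the Cre_PD1 range of 18.91 to 26. In the limma fit on TPM the log2 differences of the 5 sensors ran from -0.43 to 0.16.

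Isg15, a ubiquitin-like protein attached to other proteins, was at 68.9, 139 and 60.7 TPM in MKO_PD1 and at 63.8, 107 and 94.0 TPM in Cre_PD1. Its log2 difference was -0.046 with a 95% interval from -0.90 to 0.81, and it turned to 0.453 with median-of-ratios scaling. Usp18, the protease that removes Isg15 and dampens the receptor, was at 19, 21.7 and 15.2 TPM in MKO_PD1 and at 12.3, 16.4 and 19.1 TPM in Cre_PD1. Within MKO_PD1 it spread by 1.43-fold from lowest to highest, where the median member spread by 2.30-fold. Trim25, a ubiquitin ligase that activates RIG-I, was at 50.7, 99.6 and 77.3 TPM in MKO_PD1 and at 92.0, 71.0 and 85.5 TPM in Cre_PD1.

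The IFIT genes, whose proteins bind viral RNA and lie together within 99.3 kb of chromosome 19, all had their highest level in TPM in MKO_PD1 replicate 2. Ifit3 was at 33.7, 100.2 and 41.4 TPM in MKO_PD1 and at 36.4, 65.0 and 48.5 TPM in Cre_PD1. Ifit2 was at 8.54, 38.0 and 13.5 TPM in MKO_PD1 and at 17.2, 19.3 and 19 TPM in Cre_PD1. For Ifit2 in TPM the Cre_PD1 tumours differed by 1.12-fold from lowest to highest, the least of all members in that group. MKO_PD1 replicate 2 was above them and MKO_PD1 replicates 1 and 3 below. With median-of-ratios scaling MKO_PD1 replicates 1 and 3, at 14.85 and 15.62, were inside the Cre_PD1 range of 14.29 to 17.24. Ifit1 was at 13.7, 30.1 and 16.1 TPM in MKO_PD1 and at 13.6, 20.8 and 19.6 TPM in Cre_PD1. Ifit3b was at 8.81, 14.2 and 6.48 TPM in MKO_PD1 and at 5.75, 7.79 and 7.30 TPM in Cre_PD1. The 4 log2 differences ran from -0.15 to 0.39.

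The OAS proteins make short oligoadenylates that switch on an RNA-degrading enzyme, and the Oas2, Oas3, Oas1a and Oas1g genes lie within 177.2 kb of chromosome 5. Oas3 was at 3.00, 13.4 and 4.65 TPM in MKO_PD1 and at 9.81, 6.14 and 8.89 TPM in Cre_PD1. Oas2 was at 10.6, 26.6 and 11.1 TPM in MKO_PD1 and at 16.0, 13.3 and 21.1 TPM in Cre_PD1. In TPM, for both genes, MKO_PD1 replicate 2 was above, and MKO_PD1 replicates 1 and 3 were below, every Cre_PD1 tumour. With median-of-ratios scaling this held for Oas3 and not for Oas2. Oas2 was then at 18.43 in MKO_PD1 replicate 1, above every Cre_PD1 tumour. In MKO_PD1 replicate 3 it was at 12.85, inside the Cre_PD1 range of 11.9 to 16.97. Oas1a was at 20.3, 34.4 and 14.9 TPM in MKO_PD1 and at 21.6, 18.2 and 23.9 TPM in Cre_PD1. Oas1g was at 5.60, 12.9 and 6.99 TPM in MKO_PD1 and at 7.23, 6.23 and 9.75 TPM in Cre_PD1, with MKO_PD1 replicate 2 highest for both. Oasl2 had the widest spread of all members, at 9.56, 72.2 and 24.3 TPM in MKO_PD1, 7.55-fold from lowest to highest, and at 33.3, 31.4 and 49.8 TPM in Cre_PD1. Its neighbour Oasl1, described above, lies within the same 41.0 kb and did not share this pattern.

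Among the remaining members, Adar, which edits adenosine in double-stranded RNA, was at 9.98, 38.6 and 20.0 TPM in MKO_PD1 and at 29.2, 27.1 and 37.6 TPM in Cre_PD1. Xaf1, which promotes cell death, was at 12.8, 69.3 and 28.7 TPM in MKO_PD1 and at 34.8, 46.3 and 58.5 TPM in Cre_PD1. Parp14, an ADP-ribosyltransferase, was at 21.2, 73.6 and 31.7 TPM in MKO_PD1 and at 24.3, 31.1 and 48.6 TPM in Cre_PD1. These genes, with Trim30a, a negative regulator of Toll-like receptor signalling in mice, Rtp4, Ifi44 and Ifi35, were all highest in MKO_PD1 replicate 2 in TPM. Trim30a was at 15.9, 57.0 and 25.1 TPM in MKO_PD1 and at 28.8, 32.4 and 40.1 TPM in Cre_PD1. Rtp4 was at 30.7, 63.6 and 29.3 TPM in MKO_PD1 and at 21.5, 41.0 and 47.6 TPM in Cre_PD1. Ifi44 was at 3.05, 9.22 and 3.27 TPM in MKO_PD1 and at 3.19, 4.77 and 5.12 TPM in Cre_PD1. All 3 of these genes overlapped between the groups. Ifi35 was at 43.2, 70.8 and 43.7 TPM in MKO_PD1 and at 52.2, 61.1 and 68.3 TPM in Cre_PD1. The log2 differences of Rtp4, Ifi44 and Ifi35 were 0.14, 0.085 and -0.23, with adjusted p of 0.806, 0.888 and 0.558 in limma.

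Each member was also compared with the mean of all 35 in the same library, which removes most of the scaling of the library, less so for members of a few TPM. On that measure 4 members did not overlap between the groups with MKO_PD1 higher, against 4.23% of all tested genes, and 3 with MKO_PD1 lower, against 38.7%. Cmpk2 was at -1.76, -2.35 and -2.13 log2 units from the member mean in MKO_PD1 replicates 1, 2 and 3 and at -3.14, -3.12 and -2.83 in Cre_PD1. Stat2 lay 1.03, 0.627 and 0.951 above it in MKO_PD1 and 0.034, 0.264 and 0.456 above it in Cre_PD1. Rsad2 and Mx1 also did not overlap, Mx1 by a margin of 0.009, and with median-of-ratios scaling Mx1 overlapped while the other 6 members did not. Isg20 lay 0.267, 1.41 and 1.38 above the member mean in MKO_PD1 and 2.83, 2.61 and 2.18 above it in Cre_PD1, and Oasl1 and Adar were likewise lower in MKO_PD1. The mean used here includes the gene compared, and no test was made. By construction the members' differences on this measure average 0, while those of all genes need not. The shares of all genes are therefore set by this reference and measure no excess among the members.

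**Figure D4:**
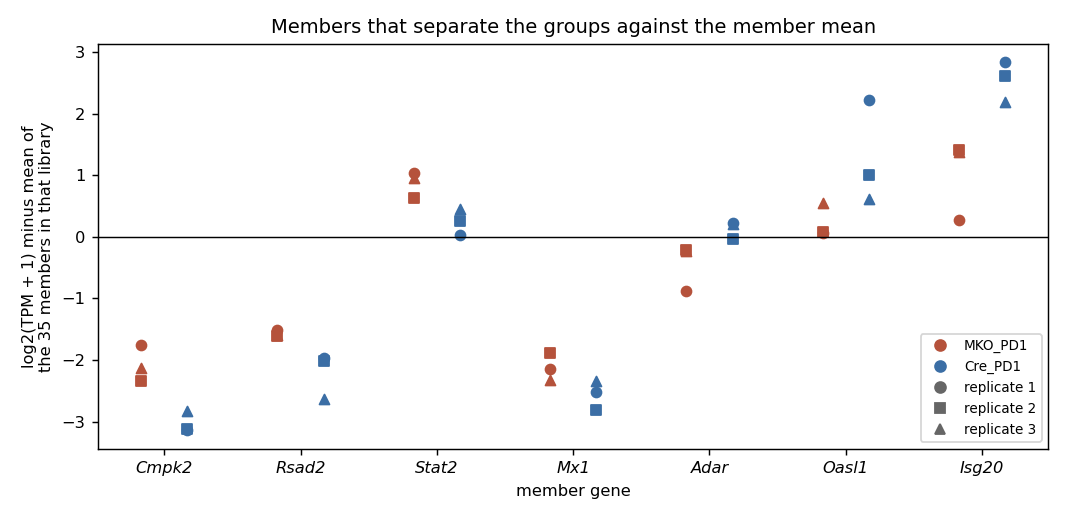
Log2(TPM + 1) of 7 members minus the mean of all 35 members in the same library, 1 point per tumour, with MKO_PD1 left of Cre_PD1 for each gene. Cmpk2, Rsad2, Stat2 and Mx1 lie higher in MKO_PD1, and Adar, Oasl1 and Isg20 lie lower in it.

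The lists of ligands, receptors, signal carriers, inducing sensors, negative regulators, Isg15 enzymes and interferon gamma-induced genes held 82 genes, of which 63 were tested and 0 passed in either direction. Of these 63, 6 did not overlap between the groups with MKO_PD1 higher, against 10.1% of all tested genes, and 5 with MKO_PD1 lower, against 28.9%. In TPM 44 of the 63 were highest in MKO_PD1 replicate 2, against 23.3% of all tested genes. This count was not repeated with median-of-ratios scaling, where the share of all tested genes was 15.7%. Of the 20 ligand genes 16 were listed at 0 in all 6 libraries, among them every interferon alpha gene in the list. Trex1, a DNA exonuclease gene expressed in many cell types and a member of the list of negative regulators, was also listed at 0 in all 6, so a listed 0 is not read here as a lack of transcript. Ifnb1 had 1 read in MKO_PD1 replicate 3 and 0 in every other library. Ifng, made by T cells and NK cells, was at 2.59, 21.3 and 2.7 TPM in MKO_PD1 and at 1.44, 4.37 and 6.70 TPM in Cre_PD1, that is 276 reads in MKO_PD1 replicate 2 and 19 to 76 in the other libraries. MKO_PD1 replicate 2 was again highest, and the groups overlapped. Ifne, a type I interferon of epithelia, was at 0.345, 0.452 and 2.42 TPM in MKO_PD1 and at 6.22, 1.25 and 2.06 TPM in Cre_PD1.

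All 15 interferon gamma-induced genes tested were highest in MKO_PD1 replicate 2. Their summed level was 954, 5270 and 1657 TPM in MKO_PD1 and 1471, 2303 and 2732 TPM in Cre_PD1, lowest in MKO_PD1 replicate 1 and highest in MKO_PD1 replicate 2, as for the members' mean. The 4 of smallest p were Iigp1, a GTPase that attacks parasite vacuoles, the immunoproteasome genes Psmb8 and Psmb9, and the peptide transporter gene Tap1, with adjusted p from 0.305 to 0.453 in limma.

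Of the 9 receptor and kinase genes, Ifnar2, a chain of the type I interferon receptor, was at 45.2, 56.4 and 49.5 TPM in MKO_PD1 and at 33.6, 43.0 and 44.2 TPM in Cre_PD1, without overlap. Ifnlr1, a chain of the interferon lambda receptor, was at 0.492, 3.18 and 3.98 TPM in MKO_PD1 and at 4.09, 4.52 and 4.04 TPM in Cre_PD1, also without overlap, although MKO_PD1 replicate 3 was close. Jak2 and Ifngr2, which serve the interferon gamma receptor, had log2 differences of -0.93 and -0.53. Their adjusted p in limma, and those of Ifnar2 and Ifnlr1, ranged from 0.203 to 0.353.

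Among the 14 inducing sensors and adaptors, Tlr7, an endosomal receptor for single-stranded RNA, had the smallest p. It was at 8.24, 10.5 and 7.92 TPM in MKO_PD1 and at 4.02, 3.57 and 3.44 TPM in Cre_PD1 (log2 difference 1.07, limma adjusted p = 0.168). Every MKO_PD1 tumour was well above every Cre_PD1 tumour. Sting1, the adaptor of cytosolic DNA sensing, was at 20.7, 92.7 and 40.8 TPM in MKO_PD1 and at 109.5, 94.7 and 110.0 TPM in Cre_PD1, all 3 MKO_PD1 values being lower. Ikbke, a kinase that activates IRF3 and IRF7, was at 23.6, 33.9 and 22.8 TPM in MKO_PD1 and at 15.4, 16.3 and 20.9 TPM in Cre_PD1. Traf3 overlapped between the groups.

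The signal carriers and regulators named by rule included Irf5, a factor of macrophages and B cells, at 49.2, 85.1 and 45.4 TPM in MKO_PD1 and 34.8, 39.1 and 42.5 TPM in Cre_PD1. Irf2bp1, a corepressor of Irf2, was at 24.4, 39.5 and 32.5 TPM in MKO_PD1 and at 48.4, 50.2 and 55.8 TPM in Cre_PD1. The galectin gene Lgals9 was at 382, 210.2 and 272 TPM in MKO_PD1 and at 131, 158 and 189 TPM in Cre_PD1. None of these 3 genes overlapped between the groups, and none passed the limma test (adjusted p = 0.223 for Irf5 and 0.168 for the other two). The other genes of smallest p, Irf2, Irf2bp2, Ptpn2, Ptpn11 and Isg20l2, overlapped between the groups, with adjusted p from 0.184 to 0.407. Of the Isg15 enzymes, the activating enzyme gene Uba7 was at 17, 62.5 and 28.3 TPM in MKO_PD1 and at 30.8, 37.0 and 50.5 TPM in Cre_PD1. The conjugating enzyme gene Ube2l6 was at 146, 203 and 120 TPM in MKO_PD1 and at 104, 169.5 and 161 TPM in Cre_PD1. Uchl3 did not overlap, with MKO_PD1 lower, and Herc3 overlapped.

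Markers of other cell types moved with the libraries. Of the 100 tested markers in 13 cell type lists, 52 were highest in MKO_PD1 replicate 2 in TPM, against 23.3% of all tested genes. The marker counts were not repeated with median-of-ratios scaling. The 10 T cell markers summed to 53.1, 379 and 85.1 TPM in MKO_PD1 and to 91.2, 123 and 158 TPM in Cre_PD1, again highest in MKO_PD1 replicate 2, and 9 of the 10 had their highest level there. The 8 NK cell markers summed to 48.3, 332 and 68.6 TPM in MKO_PD1 and to 59.9, 90.7 and 110.2 TPM in Cre_PD1. Of the 8, 7 were highest in MKO_PD1 replicate 2, where Gzmb at 226 TPM, Prf1 at 64.8 TPM and Gzma at 30.7 TPM, which cytotoxic T cells also express, made up most of the sum. Ncr1, the other one, was at 1.54, 1.36 and 1.29 TPM in MKO_PD1 and from 0 to 1.63 TPM in Cre_PD1. The 11 neutrophil markers summed to 299, 1251 and 481 TPM in MKO_PD1 and to 158, 263 and 142 TPM in Cre_PD1. Of the 10 macrophage markers 7 were highest in MKO_PD1 replicate 2, with sums from 3134 to 6365 TPM in MKO_PD1 and from 2593 to 3460 TPM in Cre_PD1. Among these 10, 9 had a log2 difference above 0, against 27.1% of all tested genes. For 5 of them the groups did not overlap with MKO_PD1 higher, against 10.1%, and for 0 with MKO_PD1 lower, against 28.9%. The 8 markers of plasmacytoid dendritic cells, which can release large amounts of type I interferon, summed to 30.25, 129.8 and 57.0 TPM in MKO_PD1 and to 118, 121 and 148 TPM in Cre_PD1, and MKO_PD1 replicate 2 was not highest for that sum, which Ly6d dominated at 93.3 TPM in MKO_PD1 replicate 2. Among the 8, 5 were highest in MKO_PD1 replicate 2, Siglech at 2.54 TPM among them. Kupffer cell markers, of resident liver macrophages, summed to 2256, 416 and 1454 TPM in MKO_PD1 and to 223, 523 and 469 TPM in Cre_PD1, with MKO_PD1 replicate 2 the lowest of its group. Monocyte markers summed to 558, 1636 and 1129 TPM in MKO_PD1 and from 1730 to 2090 TPM in Cre_PD1, and B cell markers to at most 26.9 TPM in any library. All 7 fibroblast markers were highest in MKO_PD1 replicate 2, with sums of 229, 2308 and 652 TPM in MKO_PD1 and 766, 1245 and 835 TPM in Cre_PD1. The part of these cells in the members' levels was not tested.

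Hepatocyte markers, 15 of 15 with a log2 difference above 0, took from 3.01 to 12.5% of all TPM in MKO_PD1 and from 1.05 to 2.47% in Cre_PD1. MKO_PD1 replicate 1 had the largest hepatocyte sum and MKO_PD1 replicate 2 the smallest of that group. The 8 tumour epithelial markers summed to 2499, 9951 and 6696 TPM in MKO_PD1 and to 24810, 18320 and 18220 TPM in Cre_PD1. The sums did not overlap and neither did Krt8, Krt18, Krt19 and Spp1, which carried them, while the other 4 overlapped and Epcam and Cldn4 were highest in MKO_PD1 replicate 2. None of the markers in these lists was at 0 in every library. The part of hepatocyte content in the members' differences was not tested beyond removing the hepatocyte list before scaling, which called 0 members and gave them a median log2 difference of 0.140.

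**Figure D5:**
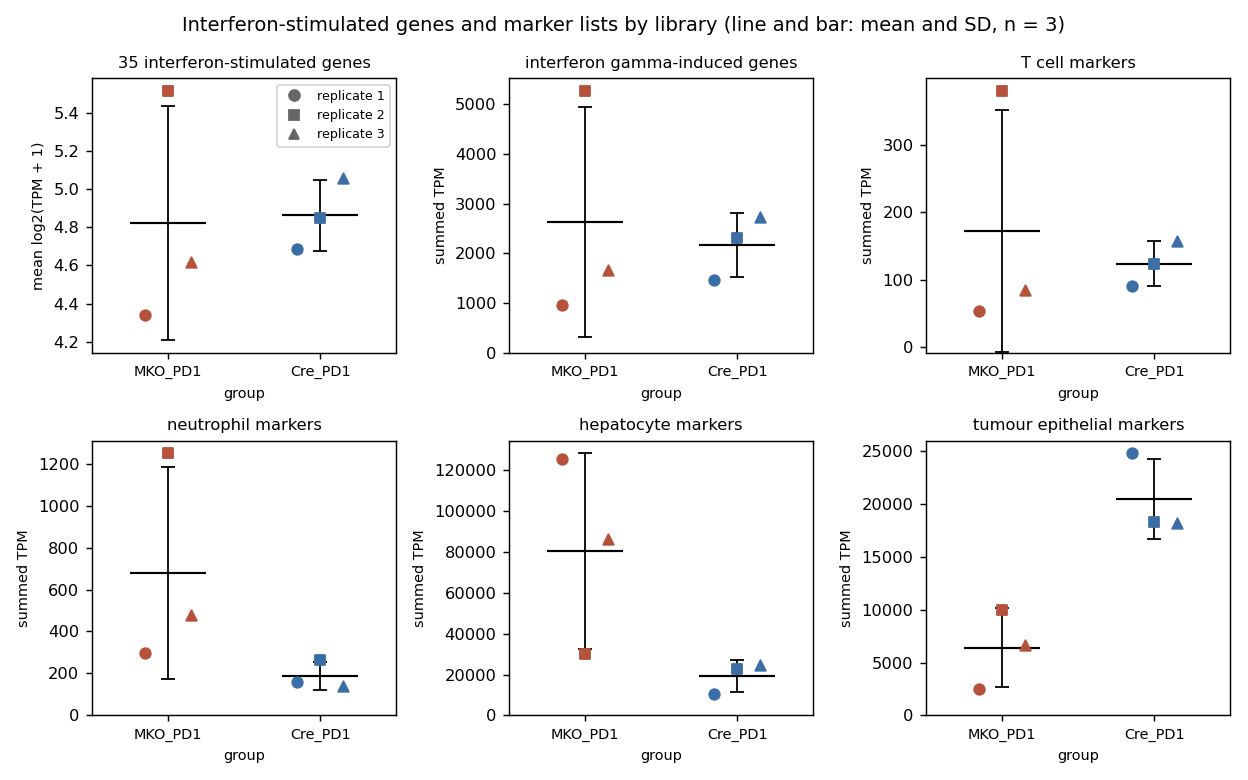
Mean log2(TPM + 1) of the 35 genes and summed TPM of 5 marker lists in each tumour, with a line at the group mean and a bar of 1 SD (n = 3). MKO_PD1 replicate 2 (square) is highest for the members, the interferon gamma-induced genes, T cell and neutrophil markers, and lowest within MKO_PD1 for hepatocyte markers.

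Without MKO_PD1 replicate 2, 8 members had a log2 difference above 0, where 18 had one with all libraries. In that fit 6 of 35 members passed the limma test, all lower in MKO_PD1, against 38.0% of the 15940 genes tested in that fit, and the members' median log2 difference was -0.36 where that of all genes was -0.66. These 6 were Isg20, Oasl1, Oasl2, Oas3, Adar and Xaf1, with log2 differences from -2.11 to -0.94 and adjusted p from 0.0290 to 0.0481. This fit was on TPM and was not repeated with median-of-ratios scaling. On that scale MKO_PD1 replicate 3 lay inside the Cre_PD1 range for Oasl2 and Xaf1. For Isg20, Oasl1, Oas3 and Adar, MKO_PD1 replicates 1 and 3 lay below every Cre_PD1 tumour. With any other single library left out 0 members passed, and from 2.86 to 11.4% of them had an unadjusted p under 0.05, against 9.62 to 20.0% of all genes. Over 11 alternatives that can move the fitted difference, which leave out 1 library or change the scaling, the pseudocount or the model, 12 members kept their sign wherever they were tested. Of these, 8 were above 0 (Cmpk2, Rsad2, Mx2, Stat2, Ifitm3, Irf7, Usp18 and Ifit3b) and 4 were below 0 (Isg20, Oasl1, Adar and Xaf1). With MKO_PD1 replicate 2 as the one MKO_PD1 library, the 8 were again above 0, Isg20 and Oasl1 again below 0, and Adar and Xaf1 above 0 at 0.31 and 0.59.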

How the data were processed

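Polyadenylated RNA of 6 liver tumours was sequenced as bulk libraries, 3 per group. Per the submitters' processing notes, reads were aligned with STAR 2.7.10a to mm10 and counted per gene with featureCounts 2.0.3 of Subread. The deposited table is named as TPM, but its columns sum to 70363 to 105281 and not to a fixed total. The deposited values are therefore a read signal per exon length, and were recorded as signal where TPM had been planned for. How the values were made from counts, and whether counting used strand, is not given in the sources used here. Multiplied by the exon length in GENCODE M21 and divided by 8.028, 98.5% of 29802 genes with a value gave whole reads within 0.001 in all 6 libraries.

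Each library was rescaled to 1000000 (TPM) and log2(TPM + 1) compared with limma 3.58.1 in R 4.3.3 (mean-variance trend, no covariate, Benjamini-Hochberg over all 16506 genes, threshold 0.05). Fold differences understate low genes on this scale. The procedure was tested on simulated data. The design text counts 3 mice per group, so p-values set the group difference against the spread between these mice. Limma moderates that spread over all genes and takes it as the same in both groups. Groups of 3 and 3 allow no exact permutation p below 0.1.

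The members and lists were chosen with earlier results of these data known. All 35 members are named. From each pathway list the 4 tested genes of smallest p are named. Exons of 10 members share bases with another gene (Adar with Chrnb2 over 16.8% and Ifi35 with Gm11626 over 16.8% of the exon length, on opposite strands, and Rtp4 with Gm45338 over 13.9% on the same strand), and reads there may belong to either gene, on opposite strands only where counting ignored strand. The column header of MKO_PD1 replicate 2 has a Cyrillic letter in the group name, and the column was matched by the library name in the labels. Isg15 was not recovered as whole reads and kept its deposited value. Alternatives changed the pseudocount, filter, scaling, trend, robust option, replicate block, threshold and libraries. Limma voom on recovered reads and a fit with 1 MKO_PD1 library, and the member means and counts with median-of-ratios scaling, were chosen after seeing the data.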

Additional observations from a re-analysis of the deposited data

How the results depend on the processing

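No member passed the threshold in any setting other than the fit without MKO_PD1 replicate 2, so the count of 0 members ranged from 0 to 6 when 1 library was left out, and all genes past the threshold from 0 to 7314. Over all genes the count of 2 became 0 without a filter, with the filter of 5 TPM, with the replicate block and with limma voom, and 1 with median-of-ratios scaling and with MKO_PD1 replicate 2 as the only MKO_PD1 library, which is then assumed to vary like the Cre_PD1 libraries. The members' median log2 difference was from -0.36 to 0.21 with 1 library left out, and -0.107 with the filter of 5 TPM, which kept 31 members. It moved to 0.570 with voom, which used median-of-ratios factors, and 0.681 in that last fit, by more than the SD of 0.455 between replicates. Relative to all genes it was between 0.152 (no filter) and 0.691. The replicate numbers only name the tumours: same-numbered deviations correlated at -0.420, -0.265 and 0.049 over genes, and with the replicate block 0 members passed.

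The sign of many small differences depended on the scaling. With median-of-ratios scaling the log2 differences below 0 that came out above 0 were Irf9 0.37, Ifih1 0.37, Zbp1 0.31, Eif2ak2 0.045, Isg15 0.45, Trim25 0.33, Ifit2 0.32, Oas2 0.31, Oas3 0.0092, Bst2 0.35, Ifi35 0.27 and Trim30a 0.26. With limma voom, which also used median-of-ratios factors and so is no separate check of the scaling, they were Irf9 0.38, Ifih1 0.39, Zbp1 0.29, Eif2ak2 0.058, Trim25 0.33, Ifit2 0.37, Oas2 0.35, Oas3 0.060, Bst2 0.35, Ifi35 0.26 and Trim30a 0.27. Removal of the hepatocyte list before scaling turned that of Isg15 to 0.047. Leaving out 1 library at a time gave differences on both sides of 0 for 19 members, with these lowest and highest values: Irf9 -0.36 to 0.029, Ddx58 -0.064 to 0.30, Ifih1 -0.36 to 0.11, Dhx58 -0.079 to 0.33, Zbp1 -0.78 to 0.30, Isg15 -0.41 to 0.18, Trim25 -0.39 to 0.090, Ifit1 -0.24 to 0.30, Ifit2 -0.73 to 0.29, Ifit3 -0.37 to 0.40, Oas1a -0.26 to 0.32, Oas1g -0.25 to 0.29, Oas2 -0.56 to 0.061, Oasl2 -1.23 to 0.17, Mx1 -0.067 to 0.66, Rtp4 -0.21 to 0.36, Ifi44 -0.35 to 0.32, Trim30a -0.71 to 0.18 and Parp14 -0.35 to 0.53. The cause was not tested.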
